A study of Mus musculus with 8 samples.

Results

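The genes described here are 33 genes of glycolysis and of glycogen metabolism, out of 37074 gene names on the array. They were chosen by name, as the enzymes from hexokinase to lactate dehydrogenase, the carriers of glucose and lactate, the enzymes that set the rate of phosphofructokinase, and the enzymes that build and break glycogen. The rule took every probe that carries 1 of these names and is not a control, which gave 78 of 56605 probes. All 33 genes were on the array, and the probe with the highest mean signal over the 8 arrays stood for its gene in the tallies.

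Total RNA of tissue labelled as brown adipose tissue was hybridized to single-color Agilent mouse arrays, 1 array per mouse. The 4 Co mice received 100 μL of saline intravenously, and the 4 Pg mice received sonicated *P. gingivalis*, a bacterium of periodontal disease, in the same volume of saline. All mice were male C57BL/6J animals, 12 weeks old, and the tissue was taken 18 h after the injection. The comparison asks which genes this exposure to bacterial material altered in the tissue, and the changes below are Pg minus Co on the log2 scale of the quantile-normalized signal, with n = 4 arrays per group.

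Glycolysis splits glucose into pyruvate, and its pace is set mainly at hexokinase, at phosphofructokinase and at pyruvate kinase. Muscle and brown fat both draw on it, and both keep glycogen, the stored form of glucose, which glycogen phosphorylase breaks down when energy is needed. Bacterial lipopolysaccharide is known to shift immune cells toward glycolysis with lactate release.

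The number of probes that stood well above background ran from 34761 to 35831 on the Co arrays and from 31135 to 34066 on the Pg arrays, and no spot was saturated. All arrays shared 1 slide, where row 1 held the Co and row 2 the Pg samples, and the effects of row and group cannot be told apart. The labelled tissue did not match its defining markers in full. *Ucp1*, which defines the brown adipocyte, was above background on no array, and neither were *Elovl3*, *Slc27a2* and *Bmp8b*. The other 10 of the 14 brown adipocyte markers, such as *Cidea*, *Prdm16* and *Ppargc1a*, and all 10 general adipocyte markers were above background on all 8 arrays. So were all 28 markers of fast, slow or shared striated muscle. The median log2 level of the fast, slow and shared muscle lists was 17.37, 18.2 and 17.34. That of the brown adipocyte list was 10.42 and that of the general adipocyte list 10.4. The RNA thus held both adipocyte and muscle transcripts, with the muscle lists far brighter at the median. Fewer cells of a type cannot be told apart from less RNA per cell.

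None of the 33 genes passed an adjusted p of 0.1 in limma's test on its highest probe. Over all genes tested in the same way, 6.22% passed, a share that ran from 0.0134% without Co replicate 3 to 5.67% without Pg replicate 3 when 1 array was left out. The median change of the 33 genes was -0.01, the same as the median of -0.01 over all 22324 genes tested. Of the 33 genes, 14 had a change above 0 and 19 below. The unadjusted p was under 0.05 for 3 genes, *Pfkfb1* and *Fbp2* below 0 and *Pfkp* above.

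Under the quantile normalization, the genes were measured well enough to bound most of these changes. All 33 were well above background on all 8 arrays, and the 95% interval of a change reached 0.16 to either side at the median gene and 0.74 at the widest, that of *Slc16a3*. These intervals take the normalization as exact. With scaling to the 75th percentile instead, the median change was -0.08 for the members and 0 for all genes. *Aldoa*, the brightest member, then had a change of -0.09, against 0 with quantile normalization. The change lay within 0.2 of 0 for 29 of 33 genes (87.9%), against 67.7% of all genes tested. The members were brighter than most genes, with a median log2 signal of 14.07 against 8.73. Among genes with a signal of at least 12, 86.7% lay within 0.2 of 0 and 5.09% passed the test, and 23 of the 24 members at that signal lay within 0.2.

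**Figure D1:**
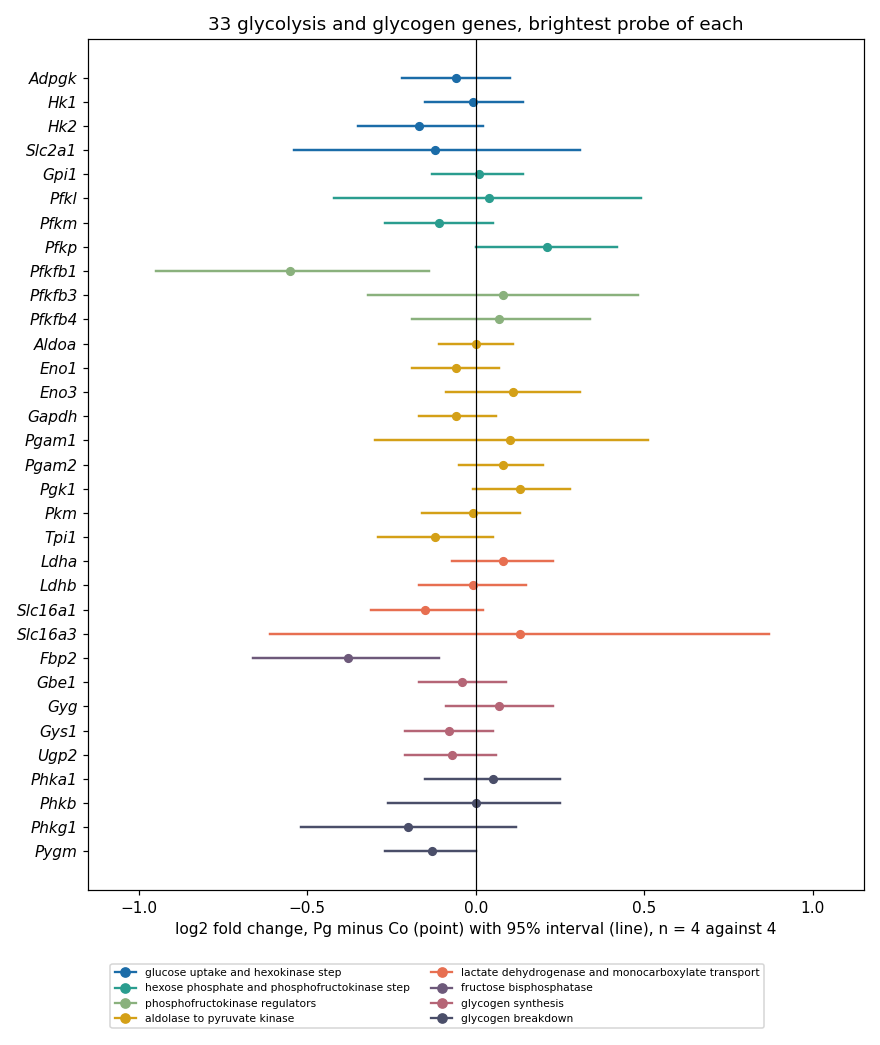
Change of each of the 33 genes on its brightest probe, as log2 fold change (Pg minus Co, horizontal axis) with its 95% interval from limma (n = 4 against 4), grouped by role in color. Most points sit within 0.2 of 0, with *Pfkfb1* at -0.55 and *Fbp2* at -0.38 farthest to the left.

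The other probes of the same genes gave a different count. Of 71 member probes that were tested, 8 passed an adjusted p of 0.1 (11.3%), against 7.82% of all 33820 probes tested. None of the 8 was the highest probe of its gene, and the groups overlapped in none of them. Of the 8, 6 were lower in Pg mice (8.45% of the member probes, against 6% of all probes), and 2 were higher. With a measured fold change above 1.5 as well, 2 member probes remained, against 1.61% of all probes, and they belong to *Phka1* and *Adpgk*. The *Adpgk* probe was above background on no Pg array and was tested only through the Co arrays. Its fold is known only to be at least 1.2, a lower bound that does not reach 1.5. The probe is included in the counts of 8, 6 and 2 above, but adds no support to them. Leaving out Co replicate 3 ended all 8 calls, and the count was 2 to 8 when any other array was left out. Calls over all 33820 probes went down in the same fits, from 2644 to 3 without Co replicate 3 and to between 234 and 2411 without any other array.

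Of these 8 probes, 3 match the gene's RefSeq transcript and 5 match another transcript or clone. The probes below are 60 letters long and carry 6 of the 8 calls, beside the *Gapdh* probe at position 429, which was not called and is shown as the neighbor of the called *Gapdh* probe. They are the probes of *Gapdh* (glyceraldehyde-3-phosphate dehydrogenase), those of *Gpi1* (glucose-6-phosphate isomerase), and those of *Phka1*, *Eno1* and *Pfkl* that lie away from the main probe. Capitals mark the letters GTAAGT, the usual start of an intron.
Gapdh, NM_008084, position 346: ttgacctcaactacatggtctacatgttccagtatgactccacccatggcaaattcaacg
Gapdh, NM_008084, position 429: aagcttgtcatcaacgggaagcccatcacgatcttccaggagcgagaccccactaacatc
Gpi1, NM_008155, position 1515: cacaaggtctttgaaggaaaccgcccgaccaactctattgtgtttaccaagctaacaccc
Gpi1, BC172124, position 799: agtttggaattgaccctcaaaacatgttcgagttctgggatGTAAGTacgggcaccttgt
Phka1, AK078633: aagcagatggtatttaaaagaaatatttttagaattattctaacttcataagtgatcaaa
Eno1, ENSMUST00000130632: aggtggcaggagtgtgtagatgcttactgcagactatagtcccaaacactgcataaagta
Pfkl, AK008812: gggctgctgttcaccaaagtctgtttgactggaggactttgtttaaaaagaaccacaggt

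On the mm9 build that the array files use, the *Gapdh* probe at position 346 lies at chr6:125113312-125113371 and the *Gpi1* probe at position 1515 at chr7:34987856-34989053. The latter stretch is 1198 bases long for 60 letters, so this probe crosses an exon junction. The BC172124 probe of *Gpi1* lies in 1 unbroken run at chr7:35000956-35001015, and GTAAGT starts at its letter 42. It was the only 1 of the 78 member probes with these letters as listed, and 0.889% of all 56605 probes hold them (2 of 78 and 2.08% on either strand). A match of letters is a description, and exon and intron annotation of mm9 was not used here.

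*Gpi1*, which turns glucose 6-phosphate into fructose 6-phosphate, was called on 2 of its 4 probes. On its BC172124 probe the Co arrays read 12.09, 12.24, 12.27 and 12.31 and the Pg arrays 11.79, 11.87, 11.76 and 11.71. Every Pg array was below every Co array, with a change of -0.44 ± 0.07 (SE, adjusted p = 0.0419). On the RefSeq probe at position 1515 the Co arrays read 14.46, 14.66, 14.49 and 14.68 and the Pg arrays 14.23, 14.34, 14.24 and 14.34, a change of -0.28 ± 0.07 (adjusted p = 0.0796). The 2 probes near the end of the transcript, at positions 1995 and 1999, had changes of 0.01 ± 0.06 and 0.04 ± 0.05, and there the groups overlapped.

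*Gapdh*, a glycolytic enzyme that is often used as a reference gene, had 7 probes. At position 346 the Co arrays read 15.54, 15.64, 15.46 and 15.65 and the Pg arrays 15.15, 15.35, 15.24 and 15.21, without overlap. That probe was lower in Pg mice by the test, at -0.33 ± 0.07 (adjusted p = 0.0609), a fold of 0.793. On the 5 other probes of this transcript the changes ran from -0.16 at position 429 and -0.22 at 581 to -0.08 at 930, -0.09 at 1087 and -0.06 at 1324, and none passed. The highest probe, of the clone BC083079, had a change of -0.06 ± 0.05. The nearer a probe lay to the end of the transcript, the nearer its change lay to 0, apart from the order of the probes at 429 and 581 and of those at 930 and 1087. The probes nearer the end also had the higher signals, apart from that at 1087, so position and brightness cannot be told apart in *Gapdh*.

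**Figure D2:**
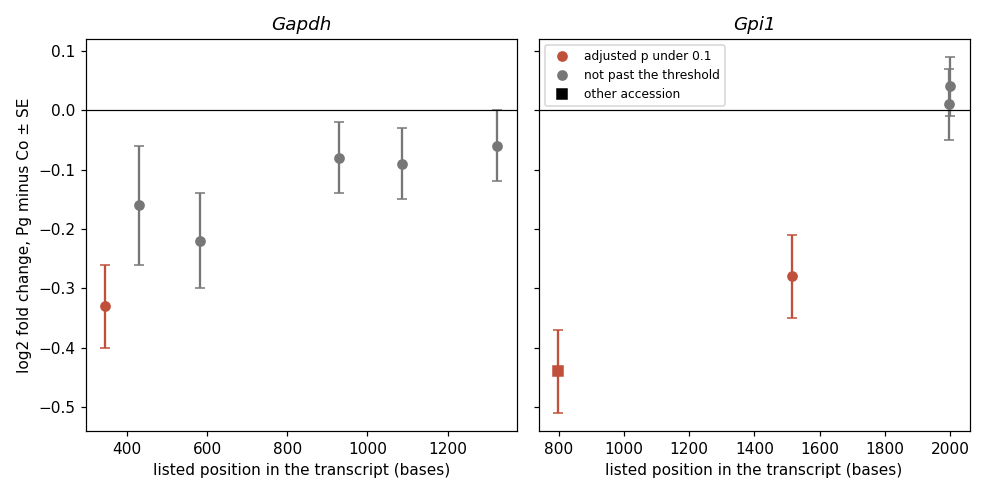
Change of each probe (log2 fold change, Pg minus Co, with its SE) against the probe's listed position in the transcript in bases, for *Gapdh* (6 probes of NM_008084) and *Gpi1* (3 RefSeq probes and the BC172124 probe as a square). The position of the square counts along BC172124 and not along the RefSeq transcript. Probes with an adjusted p under 0.1 are in red, and the changes lie nearest to 0 at the right, from -0.33 to -0.06 in *Gapdh* and from -0.44 to 0.04 in *Gpi1*.

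The same order held in each member gene with at least 2 tested probes of 1 RefSeq transcript that were at least 200 bases apart. This pattern was examined after the values had been seen. In all 10 such genes the upstream probe had the lower change, with a median difference of -0.22 between the upstream and the downstream probe. Over all 4275 genes with such a pair, the upstream probe had the lower change in 71.1%, and the median difference was -0.13. It was -0.10 among the 245 genes whose probes both had a log2 signal of at least 12, and the upstream probe was lower in 74.7% of these. The signal difference between the 2 probes did not overlap between groups in 5 of the 10 member genes, against 25.2% of all such genes.

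In *Pkm*, pyruvate kinase of muscle, the probe at position 1087 minus that at 2279 read -3.31, -3.25, -3.41 and -3.26 on the Co arrays and -3.57, -3.43, -3.49 and -3.74 on the Pg arrays. In *Gbe1*, the glycogen branching enzyme, the probe at 2455 minus that at 2862 read -2.52, -2.47, -2.52 and -2.45 on the Co arrays and -2.78, -2.76, -2.68 and -2.57 on the Pg arrays. Both differences were lower on every Pg array than on every Co array. *Gbe1* was called on its upstream probe, which read 11.06, 11.14, 11.17 and 11.22 in Co mice and 10.89, 10.80, 10.97 and 10.96 in Pg mice, at -0.25 ± 0.06 (adjusted p = 0.0843), and had a change of -0.04 ± 0.06 on the downstream one. *Ldha*, lactate dehydrogenase A, had -0.22 at position 351 and 0.08 at 1755, and *Gyg*, glycogenin, had -0.16 at 1170 and 0.07 at 1598. The differences were smallest in *Pfkfb1* (-0.06), *Tpi1* (-0.06) and *Eno1* (-0.08), and *Pfkfb1* had a change of -0.60 upstream and -0.55 downstream.

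The signal difference between the upstream and the downstream probe was also examined by array over all genes with such a pair. Its median over the 4275 genes was between -2.19 and -2.16 on the Co arrays and between -2.36 and -2.29 on the Pg arrays, without overlap (change -0.15, p = 0.0286 in a two-sided exact permutation test, which is the smallest that 4 arrays against 4 allow). The upstream probe was the dimmer one at this median and in each of the member genes with such a pair. Position and brightness thus cannot be told apart in these pairs. No measure of RNA integrity was used here, and the part of RNA quality or of labelling in the calls on upstream probes was not tested. The calls on *Gapdh*, *Gpi1* and *Gbe1* are therefore given as calls on those probes, beside the values of the probes near the end of each gene's RefSeq transcript. The BC172124 probe of *Gpi1* is listed on a clone and not on that transcript.

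**Figure D3:**
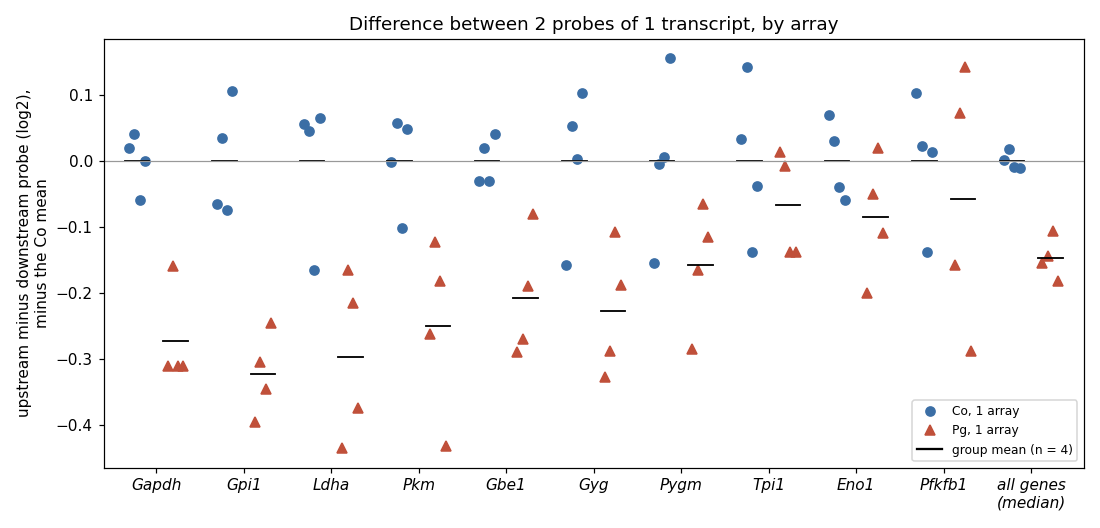
Signal of the upstream probe minus that of the downstream probe of 1 RefSeq transcript (log2), shown minus the mean of the Co arrays, for 10 member genes and as the median over 4275 genes. Each point is 1 array, and bars are group means of 4 arrays. The Pg mean lies below the Co mean in all 10 genes, and the groups are apart in the median over all genes.

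The remaining 4 called probes were dim and lay 6.20 to 28.0 kb from the gene's highest probe, listed on the same strand. *Phka1* encodes a regulatory subunit of phosphorylase kinase, which switches glycogen phosphorylase on. Its AK078633 probe, at chrX:99738737-99738796, read 7.25, 7.09, 6.50 and 6.59 on the Co arrays and 6.04, 5.88, 6.31 and 6.11 on the Pg arrays, a change of -0.77 ± 0.18 (adjusted p = 0.0734). The highest *Phka1* probe had a change of 0.05 ± 0.09, with overlapping groups. The *Adpgk* probe of the clone AK048904 (an ADP-dependent glucokinase gene) was above background on 4 Co arrays and on no Pg array. It read 5, 4.42, 4.10 and 4.17 in Co mice and 3.57, 2.67, 3.81 and 3.46 in Pg mice, the latter values below background. Set against the lowest signal well above background, the Pg mean was at least 1.2-fold lower. The adjusted p of 0.0939 comes from limma's fit to the measured values, with means of 4.42 and 3.38, and does not test that bound.

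The 2 probes that were higher in Pg mice belong to *Eno1*, the enolase of most tissues, and to *Pfkl*, the liver form of phosphofructokinase. The *Eno1* probe at chr4:149616665-149616724 read 7.38, 7.52, 7.42 and 7.41 on the Co arrays and 7.87, 7.91, 7.95 and 8.20 on the Pg arrays, a change of 0.55 ± 0.08 (adjusted p = 0.0414). The *Pfkl* probe at chr10:77470357-77470416 read 6.43, 6.61, 6.54 and 6.47 on the Co arrays and 7.34, 6.97, 7.02 and 7.03 on the Pg arrays, a change of 0.58 ± 0.09 (adjusted p = 0.0434). Both separated the groups without overlap and stayed under the fold limit of 0.585. The highest probes of *Eno1* and *Pfkl* had changes of -0.06 ± 0.06 and 0.04 ± 0.20. In all, 10 of the 19 genes with over 1 tested probe had probes with changes of both signs, namely *Eno1*, *Pkm*, *Hk1*, *Phka1*, *Phkb*, *Gbe1*, *Gyg*, *Gpi1*, *Pfkp* and *Ldha*.

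Outside the called probes, none of the probes with opposite signs passed the test. *Pkm* had -0.33 ± 0.12 at position 1087 (adjusted p = 0.152) and 0.47 ± 0.32 on the probe of the clone AK083076 (adjusted p = 0.417), and the groups overlapped on both. The 4 tested *Hk1* probes ran from -0.04 ± 0.19 to 0.15 ± 0.07 and the 3 *Phkb* probes from -0.12 ± 0.21 to 0.01 ± 0.07. The 4 tested *Pfkp* probes ran from -0.02 ± 0.18 to 0.54 ± 0.24 (adjusted p = 0.235 for the latter). A further 7 member probes were above background on fewer than 4 arrays and were not tested, and they belong to *Adpgk*, *Hk1*, *Pfkl*, *Pfkp*, *Slc16a3*, *Pfkfb3* and *Pfkfb4*.

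Among the highest probes, the largest change was that of *Pfkfb1*, whose bifunctional enzyme makes and removes fructose 2,6-bisphosphate, the strongest activator of phosphofructokinase. The Co arrays read 13.09, 13.06, 12.90 and 13.40 and the Pg arrays 12.55, 12.12, 12.78 and 12.82. Every Pg array lay below every Co array, but the change of -0.55 ± 0.17 did not pass (adjusted p = 0.126). The second *Pfkfb1* probe read 9.55, 9.44, 9.12 and 9.77 in Co mice and 8.75, 8.55, 9.29 and 8.88 in Pg mice, a change of -0.60 ± 0.19 (adjusted p = 0.119), and there 1 Pg array reached into the range of the Co arrays. The sister enzymes *Pfkfb3* and *Pfkfb4*, the former an inducible form, had changes of 0.08 ± 0.17 and 0.07 ± 0.11. With 1 array left out, these ran from -0.02 to 0.24 and from -0.01 to 0.15.

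*Fbp2*, the muscle form of fructose bisphosphatase, which runs the phosphofructokinase step backwards, had the second largest change. The Co arrays read 10.64, 10.47, 10.24 and 10.53 and the Pg arrays 9.93, 10.31, 9.93 and 10.18. The groups overlapped by 1 array on each side, and the change of -0.38 ± 0.12 did not pass (adjusted p = 0.121). Over the alternative settings the adjusted p ran from 0.0953 to 0.22 for *Pfkfb1* and from 0.0731 to 0.247 for *Fbp2*.

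**Figure D4:**
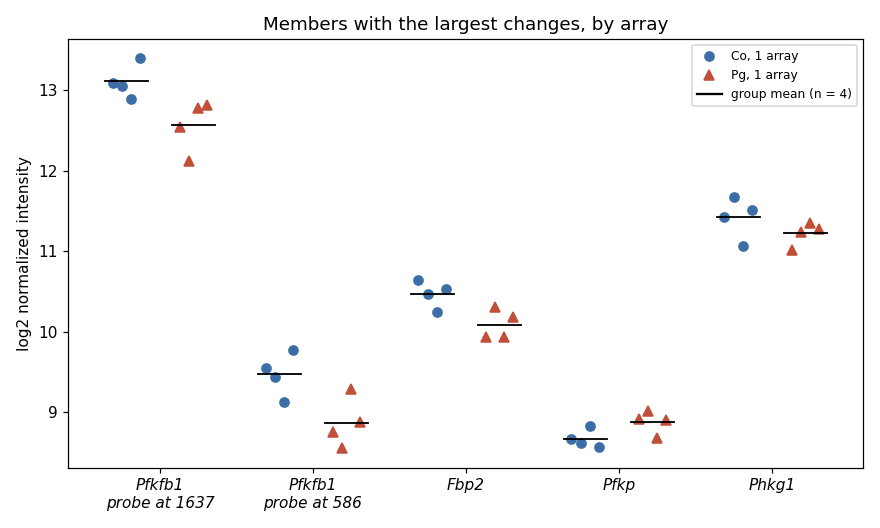
Log2 normalized intensity on each array for both *Pfkfb1* probes and for the highest probes of *Fbp2*, *Pfkp* and *Phkg1*. Circles are Co arrays, triangles Pg arrays and bars group means (n = 4). The *Pfkfb1* probe at position 1637 is the only 1 of these whose groups do not overlap.

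On the highest probes, 2 of the 33 genes had groups without overlap (6.06%), against 14.3% of all genes tested. They were *Pfkfb1*, lower in Pg mice, and *Pgk1*, phosphoglycerate kinase, which read 16.50, 16.50, 16.40 and 16.47 in Co mice and 16.56, 16.72, 16.61 and 16.52 in Pg mice. The change of *Pgk1*, 0.13 ± 0.06, did not pass (adjusted p = 0.251). A second *Pgk1* probe is listed in the opposite direction on the X chromosome and had a change of 0.23 ± 0.15.

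At the entry of the pathway, the 4 genes of glucose uptake and the hexokinase step had changes from -0.17 to -0.01. *Hk2*, the insulin-responsive hexokinase, read 13.69, 13.80, 13.81 and 13.67 in Co mice and 13.69, 13.40, 13.69 and 13.53 in Pg mice, a change of -0.17 ± 0.08 (adjusted p = 0.273) with overlapping groups. *Hk1*, the hexokinase of most tissues, had a change of -0.01 ± 0.06 and *Slc2a1*, the basal glucose carrier, -0.12 ± 0.18, with -0.27 without the fourth Co array and 0.00 without the fourth Pg array. At the phosphofructokinase step, *Pfkm*, the muscle form, had a change of -0.11 ± 0.07. *Pfkp*, the platelet form, read 8.66, 8.61, 8.82 and 8.56 in Co mice and 8.91, 9.01, 8.68 and 8.90 in Pg mice, a change of 0.21 ± 0.09 (adjusted p = 0.211) in which 1 array of each group crossed over.

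The 9 genes from aldolase to pyruvate kinase had changes from -0.12 to 0.13. *Aldoa*, the aldolase of muscle, had a change of 0.00 ± 0.05, and *Pgam2*, the muscle phosphoglycerate mutase, 0.08 ± 0.05. *Tpi1*, triosephosphate isomerase, had -0.12 ± 0.07 and *Eno3*, the muscle enolase, 0.11 ± 0.09. None of these separated the groups. *Pgam1*, the form of most other tissues, was low on 1 Co array (11.50, the others 12.15 to 12.31), and its change was 0.10 ± 0.17, or -0.07 without that array. Processed copies of *Gapdh*, *Pgk1*, *Tpi1* and *Pgam1* elsewhere in the genome can bind the same probes, and how far they did was not tested.

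At the exit to lactate, *Ldha* and *Ldhb*, the muscle and heart forms of lactate dehydrogenase, had changes of 0.08 ± 0.06 and -0.01 ± 0.07. *Slc16a1*, a lactate carrier of oxidative fibres, had -0.15 ± 0.07. *Slc16a3*, the lactate exporter of fast glycolytic fibres, varied more between mice of a group than between the groups. It read 12.83, 13.04, 11.85 and 12.82 in Co mice and 12.03, 13.12, 12.91 and 12.98 in Pg mice, a change of 0.13 ± 0.32, which was -0.13 without the third Co array and 0.37 without the first Pg array. The third Co array and the first Pg array were low, and the other 6 arrays lay between 12.82 and 13.12.

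The same 2 arrays were low in some markers of fast fibres. Of the 12 markers, 4 were lowest of their group on both arrays, and 3 of these, described after their values were seen, lay at least 1 log2 unit below the rest of the group. The other markers, among them *Myh1*, *Myh2* and *Tnnc2*, did not show this order. *Myh4*, the fastest myosin, read 13.38 on the third Co array and 11.38 on the first Pg array, against 14.38 to 17.07 on the other 6. *Actn3* read 11.78 and 10.49 there, against 13.07 to 14.01, and *Pvalb* read 14.77 and 14.39, against 15.68 to 16.29. Among the members, *Phkg1*, the catalytic subunit of phosphorylase kinase in muscle, was lowest on these 2 arrays as well, at 11.06 and 11.02. So was *Pfkfb4*, at 10.44 and 10.52. *Eno3*, *Tpi1*, *Pfkm*, *Pygm* and *Pfkfb3* were also the lowest of their group on both arrays. The third Co array was the lowest Co array for 17 of the 33 genes and the first Pg array the lowest Pg array for 11. The summed level of the 12 fast-fibre markers ranged from 21.18 to 21.34 on the Co arrays and from 21.14 to 21.29 on the Pg arrays, all 12 were above background, and 1 of them, *Atp2a1*, passed the test (-0.44, adjusted p = 0.0411). The part of fibre content in the spread of *Slc16a3* was not tested.

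**Figure D5:**
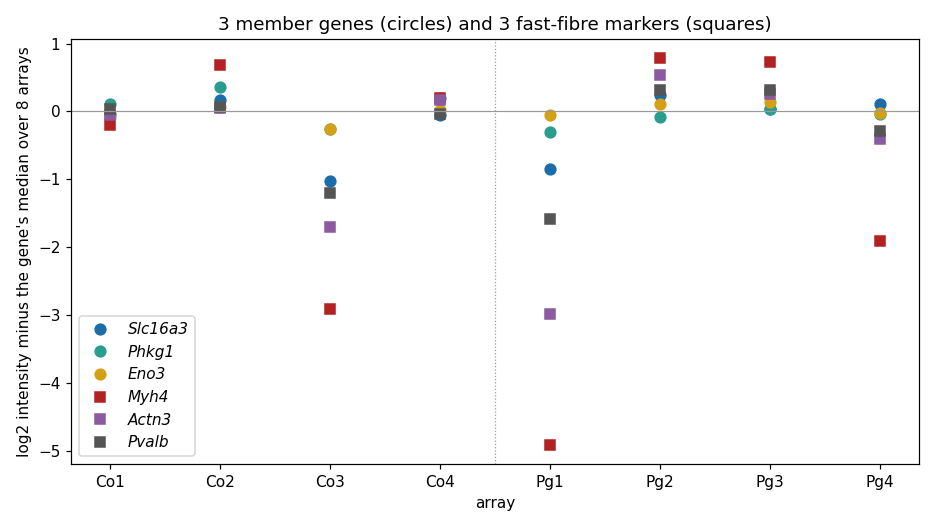
Log2 intensity minus each gene's median over the 8 arrays, by array, for *Slc16a3*, *Phkg1* and *Eno3* (circles) and the fast-fibre markers *Myh4*, *Actn3* and *Pvalb* (squares). Co3 and Pg1 lie below 0 in all 6 genes, and Pg4 is also low in *Myh4*.

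The 4 genes of glycogen synthesis had changes from -0.08 to 0.07, and the 4 of glycogen breakdown from -0.20 to 0.05. *Gys1*, muscle glycogen synthase, had a change of -0.08 ± 0.06 and *Ugp2*, which makes the UDP-glucose it uses, -0.07 ± 0.06. *Pygm*, muscle glycogen phosphorylase, read 16.68, 16.78, 16.59 and 16.69 in Co mice and 16.50, 16.53, 16.59 and 16.59 in Pg mice, a change of -0.13 ± 0.06 (adjusted p = 0.232) in groups that met at 16.59. *Phkg1* read 11.43, 11.68, 11.06 and 11.51 in Co mice and 11.02, 11.24, 11.35 and 11.28 in Pg mice, an overlapping change of -0.20 ± 0.14 (adjusted p = 0.427), and *Phkb*, a further subunit of phosphorylase kinase, had 0.00 ± 0.11.

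Differences between sister genes on the same array were compared for 6 pairs, each with an exact permutation test. The largest shift relative to its spread was in *Eno3* minus *Eno1*, which read 3.16, 3.23, 2.93 and 3.22 in Co mice and 3.23, 3.27, 3.46 and 3.28 in Pg mice. The groups met at 3.23, and the means were 3.14 and 3.31 (exact p = 0.0286, the smallest possible, and 0.171 adjusted over the 6 pairs). *Hk2* minus *Hk1* had a change of -0.16 (adjusted p = 0.429), *Pfkm* minus *Pfkl* of -0.15 and *Pgam2* minus *Pgam1* of -0.03. With 1 array left out, these changes ran from -0.22 to -0.12, from -0.26 to 0.01 and from -0.11 to 0.13. *Ldha* minus *Ldhb* had a change of 0.09, or 0.02 to 0.14 with 1 array left out. *Slc16a3* minus *Slc16a1* had a change of 0.28, with an SD of 0.63 in Co mice. The latter change was -0.03 without the third Co array and 0.54 without the first Pg array. None passed after adjustment, and with 4 arrays per group a single pair at the smallest p could not have done so.

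Around the pathway, 57 further genes were examined, of which 51 could be tested. The test was passed by 4 of them (7.84%, against the 6.22% of all genes), and all 4 were lower in Pg mice. None of the context genes passed without Co replicate 2 or without Co replicate 3, and 1 to 4 passed when another array was left out. *Bsg* encodes basigin, the partner that *Slc16a1* and *Slc16a3* proteins need at the cell surface. It read 13.75, 13.80, 13.72 and 13.83 in Co mice and 13.45, 13.41, 13.56 and 13.50 in Pg mice, a change of -0.30 (adjusted p = 0.0556) without overlap. *Ppp1r3b*, which brings a phosphatase to glycogen and so favors its synthesis, read 12.01, 12.03, 12.00 and 11.96 in Co mice and 11.77, 11.73, 11.73 and 11.71 in Pg mice, a change of -0.27 (adjusted p = 0.0505), again without overlap.

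*Txnip*, which restrains glucose uptake, read 16.58, 16.34, 16.29 and 16.39 in Co mice and 15.94, 16.13, 16.12 and 15.91 in Pg mice (-0.38, adjusted p = 0.0704). *Bpgm*, which makes 2,3-bisphosphoglycerate in red blood cells, read 12.05, 12.17, 12.17 and 12.20 in Co mice and 11.71, 11.88, 11.73 and 12.01 in Pg mice (-0.32, adjusted p = 0.0850). Both genes separated the groups. All 5 red blood cell markers also had changes below 0, with a median of -0.63, none passed, and their summed level ranged from 18.07 to 18.80 on the Co arrays and from 16.92 to 18.86 on the Pg arrays. Their part in the *Bpgm* value was not tested.

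The other context genes did not pass. In the list of glucose carriers and hexokinases 5 of 6 were tested, in that of glycolytic isoforms 7 of 10, in that of glycogen genes 20 of 21, in that of gluconeogenesis, glycerol phosphate and pyruvate carriers 12 of 13, and all 7 regulators. *Slc2a4*, the insulin-responsive carrier, had a change of 0.01 (adjusted p = 0.912), and *Hif1a*, a regulator that raises glycolytic genes in low oxygen, 0.11 (adjusted p = 0.477).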

How the data were processed

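RNA was labelled by the authors with the Agilent Low Input Quick Amp kit, which primes at the poly(A) tail. The authors deposited the Agilent Feature Extraction 11.0.1.1 output of each array, whose background-subtracted Cy3 intensity is not normalized between arrays, and a table of quantile-normalized log2 values. That table also holds the authors' fold changes, p-values, q-values, score columns and GO text from their own comparison, which were not used. Every per-sample column matched 1 sample.

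Spots with a population outlier mark were left out, spots of a probe were averaged, and intensities were quantile-normalized, raised to at least 1 and log2-transformed in R 4.3.3. Probes well above background on at least 4 of 8 arrays entered limma 3.58.1 (lmFit, then eBayes), whose two-sided p-values were adjusted over 33820 probes by Benjamini and Hochberg. A call is an adjusted p under 0.1, and a DEG also has a fold change above 1.5, as in the study's methods. The test was checked on simulated data.

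The 33 members, their roles, the context and marker lists and the naming rule were chosen with earlier results of these data known. The rule named called probes, the 5 largest changes, genes whose probes differ in sign and called context genes, and some genes of the third kind are given as ranges over their probes. *Slc16a3*, *Pgk1*, *Pgam1*, *Pkm* and the fast-fibre markers were described after their values were seen, as were uncalled genes named for their role. Of 78 member probes, 56 have a RefSeq transcript in the GRCm38.p6 table used here, all under the same symbol. Probe letters and mm9 positions came from the array files, and listed positions count from the start of the named transcript. The number of arrays limits the precision.

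Alternatives were other background, signal and scaling steps, other filters, outlier spots kept, the deposited table, the mean over a gene's probes, the replicate block and each array left out.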

Additional observations from a re-analysis of the deposited data

Results flagged for a closer look

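Of 66 sets of 4 arrays, 33 genes in each of 2 groups, 1 held an array far from the others of its group, where chance flags about 1 in 20. *Slc2a1* read 11.41 on the fourth Pg array, against 11.88 to 11.89 on the other Pg arrays, and 11.42 on the fourth Co array, which was also the lowest of its group. The change of -0.12 was 0.00 without the former array and -0.27 without the latter.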

How the results depend on the processing

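No member gene was called in 15 of 18 alternatives, of which 1 tested the mean over a gene's probes and the others its highest probe. In the other 3, namely normexp on the mean signal, the median signal without background subtraction and the deposited table, 2 genes were called each time, *Fbp2* in all 3 (adjusted p 0.0731 to 0.0947), *Pygm* with normexp and with the median signal (-0.19 in both) and *Pfkfb1* in the deposited table (-0.57). Over all genes, 8.84%, 7.83% and 5.69% were called in these 3 settings, so 2 member genes were near or below that share, and *Adpgk*, *Gpi1*, *Tpi1*, *Eno1* and *Gyg* were not tested in the deposited table. The median change of the members was -0.08 with scaling to the 75th percentile, against 0 over all genes. It was -0.04 in the deposited table (all genes -0.02), -0.07 with the mean over a gene's probes (-0.04) and -0.03 without normalization (0.05). In these settings the members thus lay below all genes, unlike in the main fit. With 1 array left out the member median was -0.04 to -0.01, and the mean over probes turned *Eno1* to 0.12. Of 589 member values under alternatives, 32 changed sign, and *Eno1* was the only gene for which both values lay more than 1 SE from 0. Member probes called fell from 8 to 0 without Co replicate 3, to 4 without a filter and to 1 without normalization, and were 6 to 11 in the other settings with all arrays, the replicate block aside, a tally added after seeing the data. Calls over all probes went from 2644 of 33820 to 3, to 1269 of 56605 and to 29 in the first 3 of these settings, and to 3452 with normexp. The context genes called went from 4 to 0 without normalization and with the replicate block, to 2 without a filter and to 0 to 4 with 1 array left out, a further tally added later. The *Gapdh* difference of -0.28 was -0.22 with 75th percentile scaling or no normalization and -0.31 to -0.26 with 1 array left out.

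The count of DEG probes depended on processing throughout, at 546 (106 higher, 440 lower), 94 with normexp (66 and 28), 108 with the median signal (75 and 33), 283 with 75th percentile scaling (137 and 146), 27 without normalization (20 and 7), 318 when all 8 arrays had to be above background, 106 in the deposited table (60 and 46) and 3 to 698 with 1 array left out, the lowest without Co replicate 3. Same-numbered arrays of the groups did not deviate together (correlations 0.059, -0.027, -0.068 and 0.178), so the numbers do not pair the mice. With the replicate block the count was 0, and no member probe passed. The cause of these shifts was not tested. In no isoform pair did a call appear.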

Other observations

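*Epm2a*, which encodes the glycogen phosphatase laforin, read 9.22 and 9.10 on Pg replicates 2 and 3 and 6.59 to 7.29 on the other 6 arrays, and was singled out after its values were seen. Its change of 1.19 did not pass limma's test (adjusted p = 0.264).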
